A study of Mus musculus with 22 samples.

Results

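A set of 10 germ cell genes was examined for H3K9me3, ATRX, DNA G-quadruplex (G4) and open chromatin peaks in mouse embryonic stem (ES) cells. The 10 genes were a fixed list of names, namely Sycp1, Sycp3, Hormad1, Ddx4, Mael, Asz1, Tdrd1, Stk31, Dazl and Slc25a31, out of 26180 genes with a curated RefSeq transcript on GRCm38. The rule that names them uses no measured value, although the choice was made with earlier results of these data known. No other curated start site lay within 1 kb of any of the 10, and only Sycp3 overlapped another gene, Chpt1. Each gene was read in 2 regions, the 1 kb on either side of its most upstream curated transcription start site (TSS) and the gene body from that TSS to the most downstream curated end. A gene counted as having a peak where a peak overlapped the region by at least 1 bp.

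The cells were the Mouse 16.7 ES line, a hybrid of the background CAST/Ei x 129/Sv/Jae, freed of feeder cells and transfected for 12 h with locked nucleic acid (LNA) antisense oligonucleotides. The control cells received a scramble LNA (scramble KD), and the treated cells an LNA against TERRA (TERRA KD), the telomeric repeat-containing RNA, so both groups carried an LNA. All 16 peak lists came from this single line, with 2 libraries per condition for each of H3K9me3, ATRX, G4 (captured with the BG4 antibody) and ATAC-seq. The peak lists contain no RNA, so neither the silence of the 10 genes nor the loss of TERRA could be read from them, and a peak is a call over background, not a level of expression. The ATRX and G4 pairs are described as biological replicates in the study's text. For the H3K9me3 and ATAC pairs nothing in the sources used here names separate cultures, so their p-values measure the spread between these libraries, which may be technical.

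Genes of this kind are used in meiosis and in the piRNA pathway, which restrains transposons in the germ line, and are held silent in most other cells. Their promoters are often rich in CpG. DNA methylation, H3K9 methylation by SETDB1 and a variant Polycomb complex that contains E2F6, MGA and MAX are known to keep them silent in ES cells. MGA and MAX bind the E-box, CACGTG, and E2F6 binds a site with the core TCCCGC, which reads GCGGGA on the opposite strand. H3K9me3 is the mark of constitutive heterochromatin, and ATRX is a chromatin remodeller that is known to bind heterochromatin and G4 DNA.

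The promoter sequences of 4 members are shown here because they carry the contrasts that follow. Sycp1 and Dazl had an H3K9me3 peak over the TSS in 1 list of each condition, Slc25a31 in a scramble KD list alone, and Ddx4 in a TERRA KD list alone, and Ddx4 had no ATAC peak near its TSS in any list. Each run holds the 250 bases before and the 50 bases after the TSS, written 5′ to 3′ along the gene, from RefSeq GRCm38.p6. Capitals mark the E-box CACGTG and the E2F core TCCCGC or GCGGGA.
Sycp1, chr3:102936051-102936350, minus strand: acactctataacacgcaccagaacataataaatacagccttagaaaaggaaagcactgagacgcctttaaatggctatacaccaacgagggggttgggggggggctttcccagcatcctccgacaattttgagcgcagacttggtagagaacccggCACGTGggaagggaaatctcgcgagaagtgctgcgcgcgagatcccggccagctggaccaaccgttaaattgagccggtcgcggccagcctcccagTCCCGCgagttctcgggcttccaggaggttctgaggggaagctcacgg
Dazl, chr17:50293571-50293870, minus strand: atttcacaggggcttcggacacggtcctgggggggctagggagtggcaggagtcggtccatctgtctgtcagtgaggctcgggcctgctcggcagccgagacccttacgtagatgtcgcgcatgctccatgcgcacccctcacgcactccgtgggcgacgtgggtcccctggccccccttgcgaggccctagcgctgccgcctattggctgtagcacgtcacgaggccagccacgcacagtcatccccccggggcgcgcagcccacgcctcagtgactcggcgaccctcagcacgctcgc
Slc25a31, chr3:40708621-40708920, plus strand: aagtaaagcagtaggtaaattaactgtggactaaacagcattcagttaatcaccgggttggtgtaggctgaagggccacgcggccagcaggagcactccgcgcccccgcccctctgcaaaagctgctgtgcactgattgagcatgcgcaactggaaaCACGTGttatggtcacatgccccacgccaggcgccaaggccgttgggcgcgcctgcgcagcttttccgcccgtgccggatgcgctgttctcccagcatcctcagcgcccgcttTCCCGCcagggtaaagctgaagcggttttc
Ddx4, chr13:112652261-112652560, minus strand: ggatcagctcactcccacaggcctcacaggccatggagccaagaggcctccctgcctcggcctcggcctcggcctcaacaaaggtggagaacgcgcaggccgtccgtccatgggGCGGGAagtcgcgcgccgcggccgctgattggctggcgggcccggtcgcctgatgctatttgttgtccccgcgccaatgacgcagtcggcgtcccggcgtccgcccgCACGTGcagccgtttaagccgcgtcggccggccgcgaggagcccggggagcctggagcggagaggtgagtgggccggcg
Dazl held neither motif in this window, while the other 3 held 1 E-box and 1 E2F core each.

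All 10 members were matched to a RefSeq promoter of this length, as were 19139 of all genes. An E-box, which reads the same on both strands and overlapped no E2F core in these promoters, lay in 8 of the 10 promoters, against 8.03% of all matched promoters. The 2 without one were Asz1 and Dazl. Sycp3 and Hormad1, both of the meiotic chromosome axis, held 2 E-boxes each. The E2F core lay on either strand in 6 of 10 promoters, against 25.1% of all, and Mael held 2. The same 6, Sycp1, Sycp3, Hormad1, Ddx4, Mael and Slc25a31, held both motifs, a combination found in 2.63% of all promoters. In the wider germline list of 55 other genes, 42 had a matched promoter. Of those, 26.2% held an E-box, 40.5% an E2F core and 7.14% both. Each motif contains a CpG, and the part of CpG content in these shares was not tested. A G4 motif (4 runs of at least 3 G, or of C on the other strand, parted by 1 to 7 bases) lay in the promoters of Hormad1 and Mael, 2 of 10, against 20.7% of all promoters. These are matches of letters, and no binding of E2F6, MGA or MAX was measured.

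The observed-to-expected CpG ratio ran from 0.67 in Sycp3 to 0.98 in Ddx4, with a median of 0.79, against a median of 0.55 (quartiles 0.22 and 0.82) over all matched promoters. The median of the 42 matched promoters of the wider germline list was 0.63. Ddx4, the RNA helicase also called Vasa, had 38 CpGs in 300 bases, the most of the 10, and Sycp3 had 15, the fewest. All matched promoters with an H3K9me3 peak within 1 kb of the TSS in at least 1 list (996) had a median ratio of 0.34, and the 18143 without had 0.57. All 10 members, with or without such a peak, lay above the median of both sets.

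**Figure D1:**
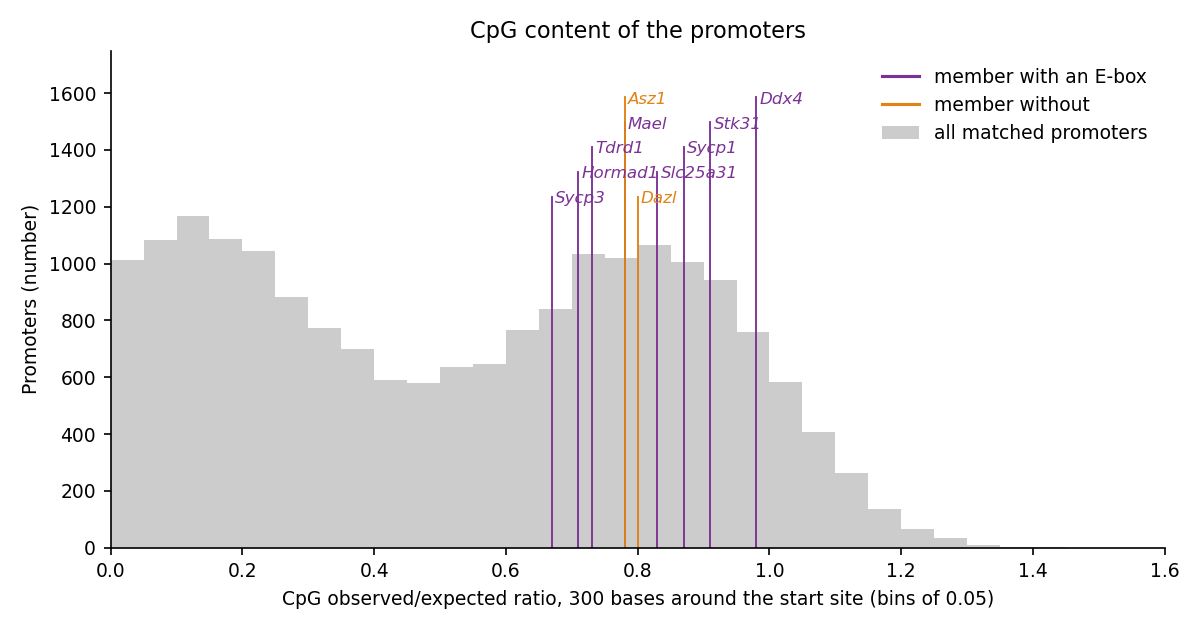
Observed-to-expected CpG ratio of 300 bases around the TSS (horizontal axis, bins of 0.05) against the number of promoters (vertical axis). Grey bars are the 19139 matched promoters, purple lines and names the 8 members with an E-box, orange the 2 without; all members lie between 0.67 and 0.98, with Mael and Asz1 both at 0.78, and the few promoters beyond the axis are not drawn.

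H3K9me3 peaks lay within 1 kb of the TSS of 5 of the 10 genes in the scramble KD replicate 1 list, where 2.28% of all genes had one. The 5 were Sycp1, a protein of the synaptonemal complex; Mael and Stk31, both grouped with the piRNA pathway; Dazl, an RNA-binding protein needed for germ cell development; and Slc25a31, the ADP/ATP carrier of the testis. In the scramble KD replicate 2 list no member had one (1.96% of all genes). In the TERRA KD replicate 1 list the count was 3, Sycp1, Ddx4 and Dazl (2.35% of all genes), and in the TERRA KD replicate 2 list it was again 0 (2.07%). At least 1 of the 4 lists marked the TSS of 6 members, against 5.23% of all genes, and no list marked Sycp3, Hormad1, Asz1 or Tdrd1. The mean was 2.5 members under scramble KD and 1.5 under TERRA KD. This difference of -1 was smaller than the gap between replicates within each condition, which was 5 under scramble KD and 3 under TERRA KD (two-sided exact permutation test, p = 1.000, where the smallest p that 2 libraries against 2 allow is 0.333).

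Dazl carried the strongest of these promoter peaks. Its peak in the scramble KD replicate 1 list held 63 tags, was 38.6-fold over input with a -log10 p of 6.65, spanned 2204 bp across the TSS and had its summit 14 bp downstream. The TERRA KD replicate 1 peak at the same place held 65 tags, was 37.1-fold over input with a -log10 p of 5.99 and had its summit 89 bp downstream. The 2 peaks overlapped, and the nearest H3K9me3 peak of the replicate 2 lists lay 25.5 and 25.4 kb from the Dazl TSS. Dazl was also the only member left when peaks with a -log10 p under 5 were dropped, in the scramble KD replicate 1 list and in the TERRA KD replicate 1 list, where 1.2% and 1.38% of all genes then had a TSS peak.

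Sycp1 had a 2774 bp peak over its TSS in the scramble KD replicate 1 list, 33.8-fold over input with a -log10 p of 4.17. The peak of TERRA KD replicate 1 was 4179 bp long and 19.6-fold over input with a -log10 p of 3.49, and its summit lay 1683 bp inside the gene. The remaining 4 promoter peaks were each in 1 list alone. In the scramble KD replicate 1 list, the Mael peak was 24.1-fold over input (-log10 p 3.5), the Stk31 peak 21.7-fold (2.2) and the Slc25a31 peak 21.7-fold (2.32). The Ddx4 peak of TERRA KD replicate 1 was 21.6-fold over input with a -log10 p of 2.77. Each of these 8 peaks covered the TSS itself. Apart from Dazl in the scramble KD replicate 1 list, they lay below the median -log10 p of the TSS peaks of all genes in their lists (5.4 in the scramble KD replicate 1 list and 6.77 in the TERRA KD replicate 1 list).

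The replicates differed in how H3K9me3 was called. The replicate 1 lists rest on 12090614 and 13898785 H3K9me3 tags against 3366921 and 3374834 input tags, with a median peak length of 2402 and 3119 bp. The replicate 2 lists rest on 5942692 and 5435286 tags against 19735093 and 28622103 input tags, with median lengths of 491 and 515 bp. Their part in the absence of promoter peaks from replicate 2 was not tested. In the TERRA KD replicate 2 list the peaks nearest to 2 marked promoters lay 2049 bp downstream of the Mael TSS and 2.8 kb upstream of the Slc25a31 TSS, both outside the window.

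**Figure D2:**
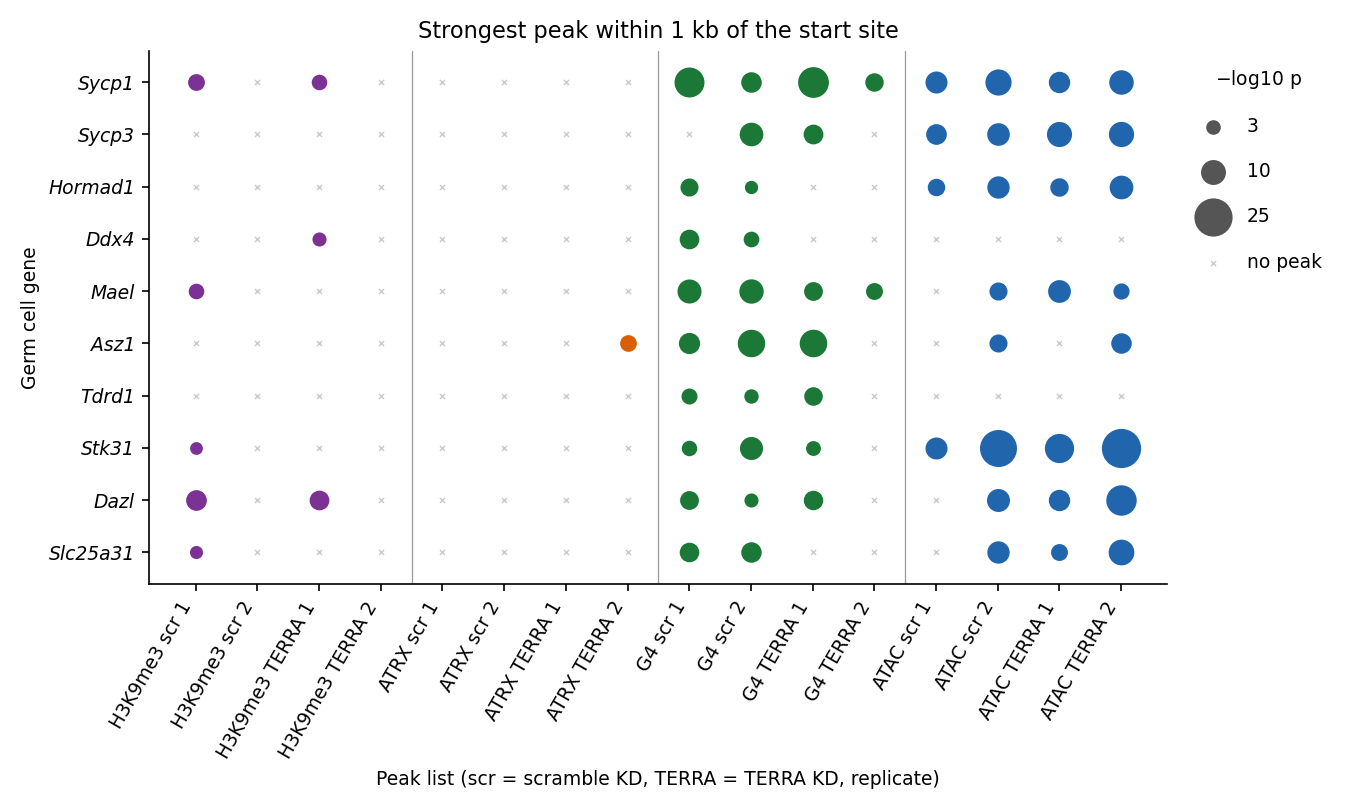
Strongest peak within 1 kb of the TSS of each of the 10 genes (rows) in each of the 16 lists (columns; scr, scramble KD; TERRA, TERRA KD; then the replicate). The area of a dot is proportional to the -log10 p in that list and a cross marks no peak; H3K9me3 dots stand in the replicate 1 columns alone, the single ATRX dot is Asz1, and Ddx4 and Tdrd1 have no ATAC dot.

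**Figure D3:**
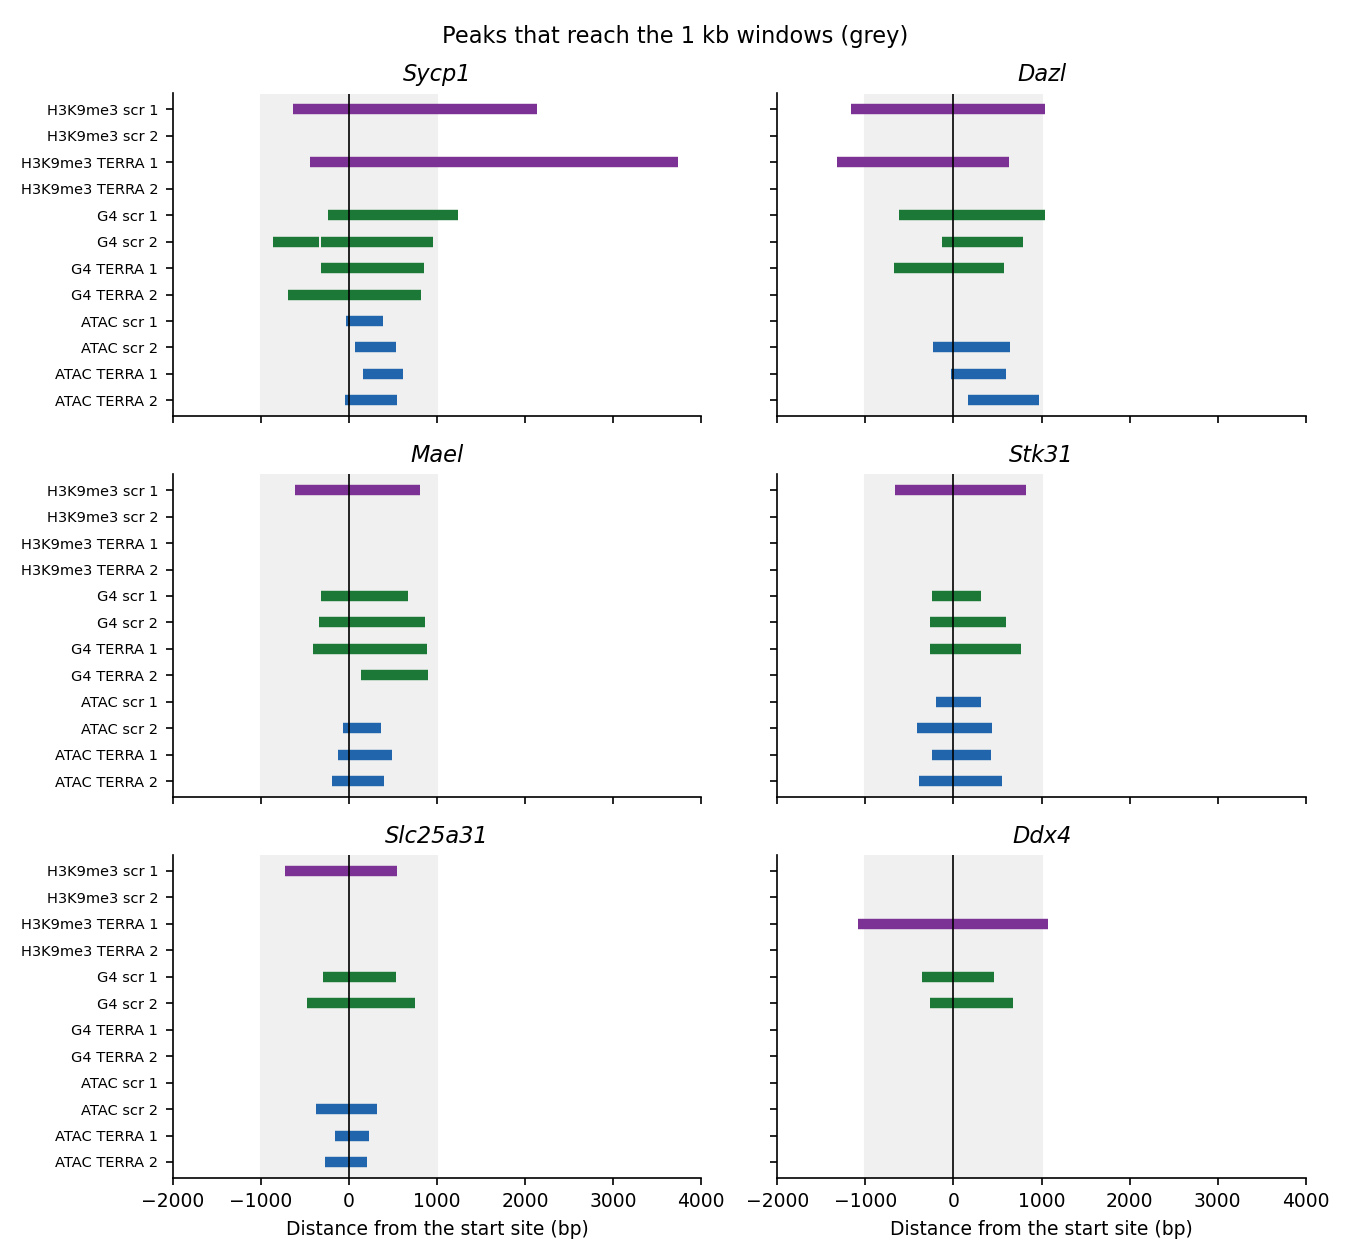
Extent of the H3K9me3 (purple), G4 (green) and ATAC (blue) peaks that reach the window of 1 kb on either side of the TSS (grey), for the 6 genes with an H3K9me3 peak there, against the distance from the TSS in bp, positive into the gene. Each line is 1 list; the H3K9me3 peaks are the longest, up to 4179 bp in Sycp1 and 2204 bp in Dazl, and none stands in a replicate 2 line.

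In the gene bodies, H3K9me3 peaks were found in 6 members in each scramble KD list (13.9% of all genes in replicate 1, 21.3% in replicate 2) and in 5 members in each TERRA KD list (13.2% and 21.2%). The difference of -1 member was larger than the gap between replicates, which was 0 in both conditions, but reached only the smallest p the design allows (two-sided exact permutation test, p = 0.333). In scramble KD replicate 1, the only body peaks of Mael, Dazl and Slc25a31 were the promoter peaks already counted. The same held for Ddx4 and Dazl in TERRA KD replicate 1. The replicate 2 lists had no promoter peak in any member, so the gap of 0 rests partly on promoter calls. The members were longer than most genes, with a median of 40.6 kb against 13.5 kb. Counted per 100 kb of gene body, the members held 2.62 and 7.42 peaks in the scramble KD lists, against 0.605 and 1.81 over all genes, and 1.96 and 4.58 in the TERRA KD lists, against 0.55 and 1.76. Within each replicate number the TERRA KD value of the members was the lower one, as was the value over all genes.

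Sycp1, Stk31 and Asz1 carried most of these peaks. Sycp1 had 4 and 11 peaks under scramble KD replicates 1 and 2 and 4 and 7 under TERRA KD. Stk31 had 3 and 13 under scramble KD and 1 and 5 under TERRA KD. Asz1, an ankyrin-repeat protein of the piRNA pathway, had 2 and 6 under scramble KD and 2 and 4 under TERRA KD. The replicate 2 lists hold more and shorter peaks, so a long domain can be 1 peak in replicate 1 and several in replicate 2. Sycp3 and Hormad1 had no H3K9me3 peak in the gene body in any list, and the nearest one lay 19177 to 83324 bp from the Sycp3 TSS and 45.9 to 132.2 kb from the Hormad1 TSS. Of 76 H3K9me3 peaks in member bodies, 68 had their summit in an intron, 5 in an exon and 3 outside the gene.

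Joined where they overlapped, the H3K9me3 peaks of the 4 lists formed 34 sites seen in 1 list, 3 in 2 lists, 2 in 3 lists and 3 in all 4. The 3 sites of all 4 lists lay inside Stk31, Sycp1 and Asz1, away from their promoters. The Stk31 site, chr6:49411358-49420270, covered 8913 bp around 20.3 kb into the gene and touched an exon. Its best peaks had a -log10 p of 11.45 and 7.57 under scramble KD replicates 1 and 2 and of 4.8 and 3.46 under TERRA KD, and the peaks in it covered 7.3 and 4.5 kb under scramble KD and 8.9 and 2.6 kb under TERRA KD. The fold over input of these best peaks was 41.3 and 8.82 under scramble KD and 17.1 and 7.9 under TERRA KD. The -log10 p and the fold were lower in the TERRA KD list of each replicate number, while the covered length was longer in replicate 1 and shorter in replicate 2. Each list was called on its own library and input, so these values have no common scale and are not levels of the mark. The site was also split differently, into 2 and 6 peaks under scramble KD and 1 and 5 under TERRA KD. A change of H3K9me3 at the site was not tested.

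The Stk31 site also held peaks of the other assays. ATAC peaks were called inside it at 17.7 and 21.1 kb from the TSS in all 4 ATAC lists. At 21.3 kb, over the second of these, ATRX was called in the scramble KD replicate 2 list (4.25-fold, -log10 p 2.46) and in the TERRA KD replicate 1 list (12.1-fold, -log10 p 4.29). This was the only ATRX site of the 10 genes seen in more than 1 list, and it was in 1 list of each condition. ATRX and H3K9me3 lists of the same condition and replicate number had equal input tag totals, so their calls were not independent in their background.

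The Asz1 site, chr6:18061075-18066072, lay in an intron 45.5 kb from the TSS. Its best peaks had a -log10 p of 11.59 and 6.51 under scramble KD replicates 1 and 2 and of 10.9 and 4.07 under TERRA KD. It held 1 ATAC site in all 4 lists and 1 G4 site in all lists but TERRA KD replicate 2, both 45.7 kb from the TSS, and 2 ATRX peaks in the TERRA KD replicate 1 list alone (10.4-fold with a -log10 p of 2.8, and 8.16-fold with 2.02). The Sycp1 site, chr3:102925881-102931912, lay 7.2 kb into the gene, with a best -log10 p of 3.82 and 6.33 under scramble KD and 12.5 and 2.63 under TERRA KD. The TERRA KD value of Sycp1 was thus higher in replicate 1 and lower in replicate 2, and no ATAC, G4 or ATRX site lay wholly inside. Soft-masked letters, which mark repeats in the reference, made up 46.7% of the Stk31 site, 66.3% of the Asz1 site and 45.8% of the Sycp1 site, against 36.4% of the genome. Over the whole gene bodies the shares were 50.4%, 43.4% and 61.4%, so only the Asz1 site exceeded its own gene.

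**Figure D4:**
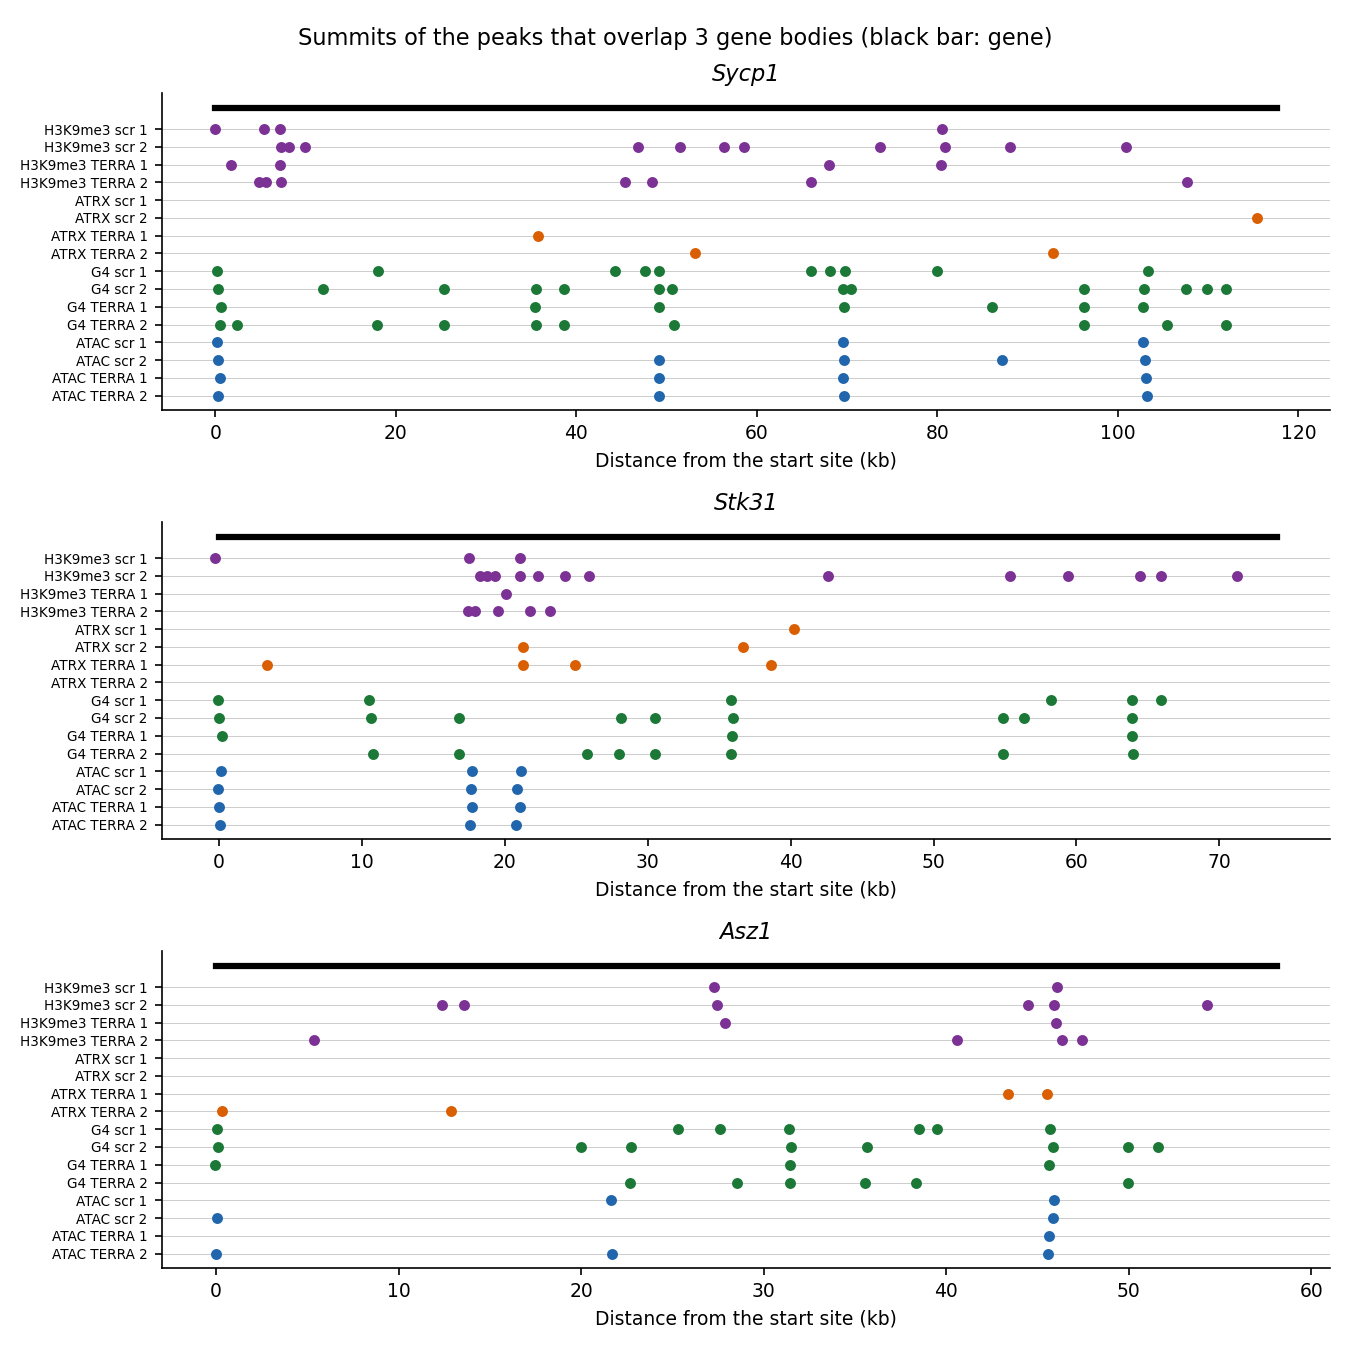
Summits of all peaks that overlap the gene bodies of Sycp1, Stk31 and Asz1 (black bars) in the 16 lists, against the distance from the TSS in kb. The sites with H3K9me3 peaks (purple) in all 4 lists are centred 7.2 kb into Sycp1, 20.3 kb into Stk31 and 45.5 kb into Asz1, with summits spread along the Stk31 site, and ATAC summits (blue) stand within the latter 2 in all 4 lists.

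ATRX peaks were all but absent from the 10 promoters. No member had one in the scramble KD replicate 1 list (1.07% of all genes), scramble KD replicate 2 (0.588%) or TERRA KD replicate 1 (8.22%), and 1 member, Asz1, had one in the TERRA KD replicate 2 list (4.83%). At least 1 list marked 13.6% of all genes, against 1 of 10 members. The Asz1 peak held 22 tags, was 4.23-fold over input with a -log10 p of 4.1 and stood in the top 4.45% of its list, with its summit 297 bp downstream of the TSS. The difference of 0.5 members lay within the gap of 1 between the TERRA KD replicates (two-sided exact permutation test, p = 1.000). A share near that of all genes is no result about the members.

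In the gene bodies, ATRX was called in 1 and 3 members under scramble KD (9.13% and 11.8% of all genes) and in 4 and 5 members under TERRA KD (31.6% and 23.6%). The groups did not overlap, and the difference of 2.5 members exceeded the gaps between replicates of 2 and 1, at the smallest p the design allows (two-sided exact permutation test, p = 0.333). The share over all genes was higher in both TERRA KD lists too, as was the number of ATRX peaks, 41260 and 21672 against 7290 and 13602. With equal numbers of top-ranked peaks for the 2 lists of each replicate number, the difference was 0.5 members (exact permutation p = 1.000). Per 100 kb, the members held 0.218 and 0.873 peaks under scramble KD (all genes 0.288 and 0.481) and 1.75 and 1.96 under TERRA KD (all genes 1.59 and 1.00). No ATRX peak in a member reached a -log10 p of 5, and with that threshold the difference was 0. Ddx4 and Asz1 had body peaks in both TERRA KD lists and in neither scramble KD list, as did 7.1% of all genes. Mael had one in the TERRA KD replicate 2 list alone, and Stk31 in every list but TERRA KD replicate 2. Sycp1 and Tdrd1 were called in lists of both conditions, and 4 members, Sycp3, Hormad1, Dazl and Slc25a31, had none.

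G4 peaks lay near the TSS of 9 members in the scramble KD replicate 1 list (41.2% of all genes) and of all 10 in the scramble KD replicate 2 list (64.1%). Under TERRA KD the counts were 7 in replicate 1 (48.5%) and 2 in replicate 2 (22.1%). Both scramble KD lists marked 9 members, against 34.7% of all genes. The means were 9.5 and 4.5 members, a difference of -5, and the groups did not overlap, but 2 libraries against 2 could give no p below 0.333 (two-sided exact permutation test, p = 0.333). With only peaks of a -log10 p of at least 5 the counts were 6 and 6 under scramble KD and 6 and 1 under TERRA KD, so the groups overlapped, and the difference was -2.5 (exact permutation p = 1.000). With equal numbers of top-ranked peaks within each replicate number it was -3 (exact permutation p = 0.667). In the lists as called, the gap between the TERRA KD replicates was as large, 5 members, and the difference was -2 within replicate 1 and -8 within replicate 2. The G4 libraries held 2961038 and 24588605 tags under scramble KD and 5759282 and 13127555 under TERRA KD, and the share of all genes was lowest in the TERRA KD replicate 2 list, whose part in the difference was not tested. Both scramble KD lists were called against an input of 23359214 tags, and both TERRA KD lists against an input of 19824848 tags. The input thus went with the condition and cannot be told apart from it. The 2 G4 lists of a condition were not independent in their background, which the permutation test does not take into account.

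Members differed in which G4 lists they appeared in. Sycp1 and Mael were marked in all 4 lists, as were 9.16% of all genes. Hormad1, a protein of the meiotic chromosome axis, Ddx4 and Slc25a31 were marked in both scramble KD lists and in neither TERRA KD list, a pattern of 4.74% of all genes. Asz1, Tdrd1, Stk31 and Dazl were missing from TERRA KD replicate 2 alone, and Sycp3, a lateral element protein of the synaptonemal complex, was marked in the scramble KD replicate 2 and TERRA KD replicate 1 lists. Sycp1 had the strongest G4 promoter peak in every list but scramble KD replicate 2, with a -log10 p of 14.91 and 6.56 under scramble KD and 15.81 and 5.15 under TERRA KD. Its 4 values were ordered by replicate number rather than by condition. Asz1, the strongest in that list, had 7.03 and 12.33 under scramble KD and 12.46 in the TERRA KD replicate 1 list. The 3 genes without a TERRA KD peak had values of 4.9 and 2.4 in Hormad1, of 5.94 and 3.57 in Ddx4 and of 5.88 and 6.49 in Slc25a31 in the 2 scramble KD lists. Of the 28 member promoters with a G4 peak, counted over the 4 lists, 21 lay above the median -log10 p of all genes with one.

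The H3K9me3 and G4 peaks shared promoters in the lists of scramble KD replicate 1. All 5 members with an H3K9me3 peak there also had a G4 peak, a combination held by 0.963% of all genes, and of all 597 genes with an H3K9me3 TSS peak in that list 42.2% had a G4 peak too. However, that G4 list marked 9 of the 10 members. Of the members without H3K9me3 there, all but Sycp3 had a G4 peak as well, and a link between the marks was not tested. In the TERRA KD replicate 1 list it was 2 of 3 members, Sycp1 and Dazl, against 47.7% of 616 genes. The H3K9me3 and G4 libraries share only a condition and a replicate number, so these are overlaps of lists, not of the same cells.

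In the gene bodies, G4 peaks were called in all 10 members in both scramble KD lists (63.1% and 83.6% of all genes), and in 9 and 7 members under TERRA KD (70.8% and 69%). The difference of -2 members had the smallest p the design allows (two-sided exact permutation test, p = 0.333). Per 100 kb the members held 8.3 and 14.4 peaks under scramble KD, against 6.33 and 19.13 over all genes, and 5.89 and 10.7 under TERRA KD, against 8.82 and 11. The members stood above all genes in 1 list and below in the other 3. Slc25a31 had no body peak in either TERRA KD list, and Sycp3 and Dazl had none in the TERRA KD replicate 2 list. The body peaks of Slc25a31 and Dazl were in every list the promoter peaks already counted, so these calls repeat the promoter result. So were the Sycp3 body peaks of the scramble KD replicate 2 and TERRA KD replicate 1 lists. All members but Slc25a31, Dazl and Sycp3 had a body peak beyond the promoter in all 4 lists. Sycp3 had such a peak in the scramble KD replicate 1 list alone. Hormad1, without a promoter call in either TERRA KD list, had sites 14.6 and 22.4 kb into the gene in all 4 lists, and Stk31 had 2 such sites, 35.8 and 64.0 kb from its TSS.

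ATAC peaks lay near the TSS of 4 members in the scramble KD replicate 1 list (59.4% of all genes), 8 in the scramble KD replicate 2 list (63.5%), 7 in the TERRA KD replicate 1 list (62.3%) and 8 in the TERRA KD replicate 2 list (64.2%). The means were 6 under scramble KD and 7.5 under TERRA KD, and the difference of 1.5 was smaller than the gap of 4 between the scramble KD replicates (two-sided exact permutation test, p = 1.000). All 4 lists marked Sycp1, Sycp3, Hormad1 and Stk31, 4 of 10 against 57.1% of all genes. No list marked Ddx4 or Tdrd1, a tudor-domain protein of the piRNA pathway, against 32.8% of all genes with no call. Mael, Dazl and Slc25a31 were missing from scramble KD replicate 1 alone, the shallowest ATAC library with 5976014 tags against 6615112 to 7883648, and Asz1 was marked in both replicate 2 lists.

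The member promoters that were called open were called weakly. Of 27 member promoters with an ATAC peak, counted over the 4 lists, 2 had a -log10 p above the median of all genes with a TSS peak in the same list, both of them Stk31. Stk31 reached 7.63 and 23.43 under scramble KD and 14.14 and 26.49 under TERRA KD, where the medians of all genes were 15.7 and 21.9, and 17.9 and 22.1. The TERRA KD value was the higher within each replicate number, by less than the distance between replicates of a condition. Dazl came second to Stk31 only in the TERRA KD replicate 2 list, with 15.43. It had 8.38 in the scramble KD replicate 2 list and 7.16 in the TERRA KD replicate 1 list. Hormad1 ranged from 4.54 to 8.97 and Sycp1 from 7.16 to 11.17. Sycp3 ranged from 6.64 to 10.28 at its stronger peak, which was not the same peak in every list.

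In the gene bodies, ATAC peaks were called in 6 and 8 members under scramble KD (68.2% and 71.9% of all genes) and in 9 and 8 under TERRA KD (70.6% and 73%), a difference of 1.5 (two-sided exact permutation test, p = 0.667). The body peaks of Sycp3, Hormad1, Mael, Dazl and Slc25a31 were all promoter peaks already counted, so this difference repeats the promoter result. Beyond the promoters, Sycp1, Asz1 and Stk31 were called in all 4 lists and Ddx4 in both replicate 1 lists, with no difference between conditions. The members held 2.62 to 3.49 ATAC peaks per 100 kb, against 4.39 to 5.6 over all genes, and were the sparser in each of the 4 lists. Tdrd1 had no ATAC peak in its 43.8 kb in any list, and Ddx4 had 1 peak in the scramble KD replicate 1 list and 1 in the TERRA KD replicate 1 list. Sycp1 had sites 69.9 and 102.9 kb into the gene in all 4 lists.

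**Figure D5:**
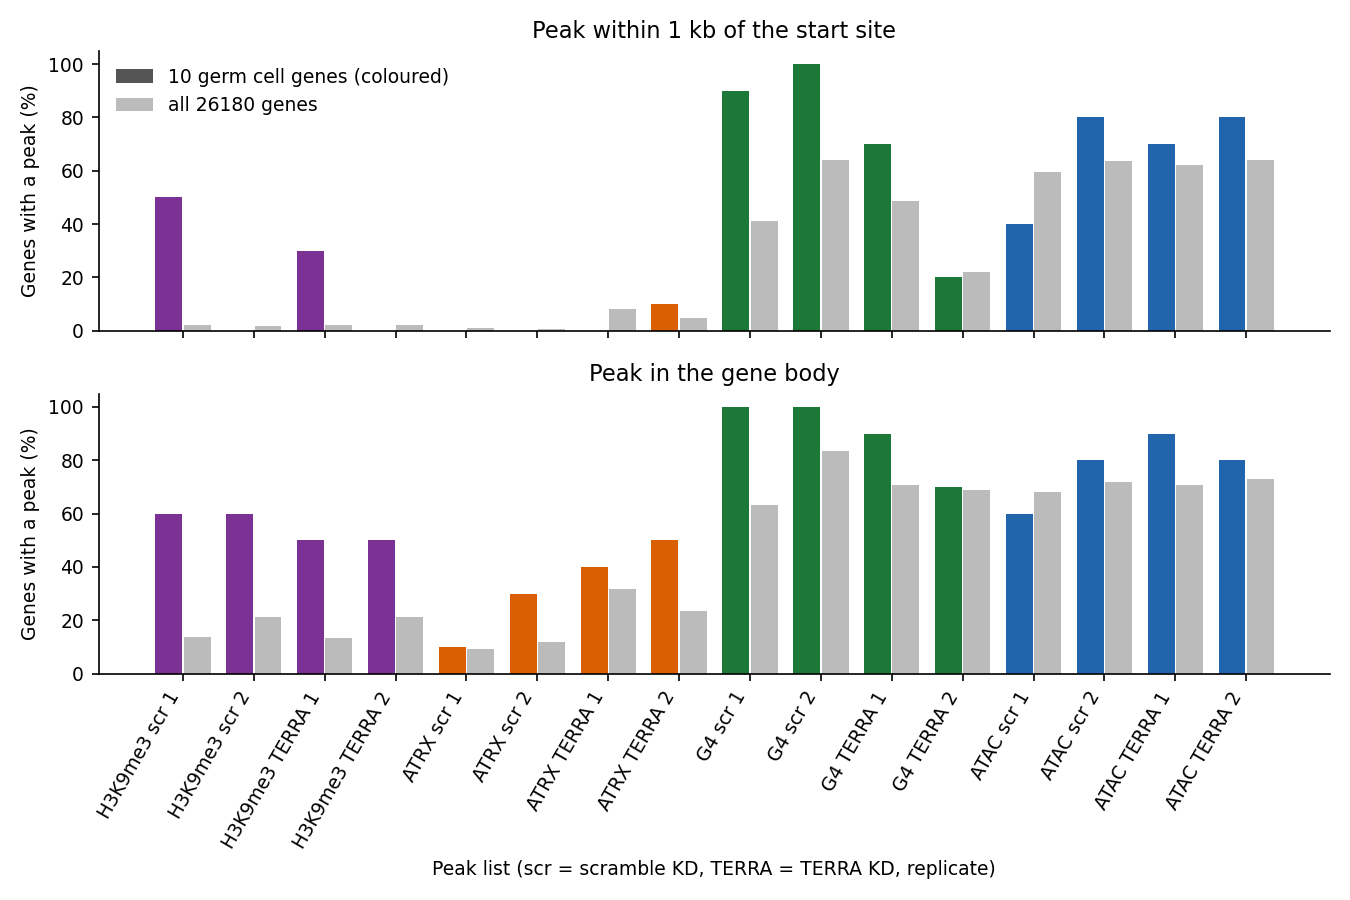
Percent of genes with a peak within 1 kb of the TSS (top) and in the gene body (bottom) in each of the 16 lists, for the 10 germ cell genes (coloured bars) and all 26180 genes (grey bars). The H3K9me3 promoter bars of the members stand at 50 and 30 in replicate 1 and at 0 in replicate 2, against 1.96 to 2.35 over all genes, and the G4 promoter bars run from 100 down to 20.

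A wider list of 55 further germline genes was read the same way. H3K9me3 lay near the TSS of 11 and 2 of them under scramble KD (20% and 3.64%) and of 6 in each TERRA KD list (10.9%), a difference of -0.909 percentage points (two-sided exact permutation test, p = 1.000). In the replicate 2 lists these were 2 and 6 of the 55, beside 0 of the 10 members. Dpep3, a dipeptidase of the testis, was marked by H3K9me3 in all 4 lists and by ATRX in both TERRA KD lists. Tuba3a, a testis tubulin, was marked by H3K9me3 in every list but scramble KD replicate 2 and by ATRX in every list but scramble KD replicate 1. Brdt, a bromodomain protein of spermatocytes, was marked by H3K9me3 in every list but scramble KD replicate 2 and by ATRX in none. These were the only genes of the wider list with an ATRX or H3K9me3 promoter peak in both replicates of a condition.

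ATRX marked 3.64% and 1.82% of the wider list under scramble KD and 18.2% and 7.27% under TERRA KD, a difference of 10 percentage points (two-sided exact permutation test, p = 0.333). The groups did not overlap, nor did the shares over all genes, 1.07% and 0.588% against 8.22% and 4.83%. The difference was 3.64 points with equal numbers of top-ranked peaks (exact permutation p = 0.333) and 1.82 points with a -log10 p of at least 5 (exact permutation p = 1.000). G4 marked 65.5% and 85.5% under scramble KD and 67.3% and 32.7% under TERRA KD (difference -25.5 points, exact permutation p = 0.667), and ATAC 70.9% to 76.4% in the 4 lists (difference 1.82 points, exact permutation p = 1.000). Over the 16 TSS calls, 7 genes of the wider list came closest to the majority call of the 10 members, with 15 of 16 calls the same. Dmc1, Meioc and Msh5, all of meiosis, are named because they come first by name among these 7. The members themselves shared 11 of 16 calls with it in Ddx4 and 12 to 14 in the other 9.

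Genes of other roles gave other counts. Of 20 core pluripotency genes, 0 had an H3K9me3 TSS peak in any list, 9 and 17 a G4 peak under scramble KD, 13 and 2 under TERRA KD, and 19 or 20 an ATAC peak. Of 18 genes for factors that silence promoters, among them E2f6, Mga, Setdb1 and Dnmt1, 1 and 0 had an H3K9me3 TSS peak under scramble KD and 2 and 0 under TERRA KD, while 16 or 17 had an ATAC peak. The 5 ES cell markers Pou5f1, Sox2, Nanog, Esrrb and Zfp42 had ATAC promoter peaks in 4 or 5 cases in each list. The 5 markers of feeder fibroblasts, Col1a1, Col1a2, Col3a1, Thy1 and Twist1, had them in 4 cases in each list, so these calls did not set ES cells apart from feeder cells, and the part of feeder cells was not tested further. Neither marker list had an H3K9me3 promoter peak in any list.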

How the data were processed

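Processed peak lists of 16 of the 22 samples were used, and the 6 input samples were not analysed here beyond the tag totals in the headers. Per the submitters' processing notes, reads were handled with Trim Galore 0.5.0, Bowtie2 2.3.4.1, SAMtools 1.9 and deepTools 3.1.1 on mm10. Per the file headers, the authors called ATRX and H3K9me3 peaks with MACS 1.4.3 and G4 peaks with MACS 1.4.2, using input as background, while MACS 2.2.7.1 without input gave the ATAC peaks, all at a p of 0.01 and per library. The deposited ChIP lists give tag counts per peak, a score of 10 times the -log10 of p, and a fold over input. The deposited ATAC lists give pileup signal, -log10 p and fold enrichment. The score was divided by 10 to give -log10 p.

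Python 3 scripts placed peaks on curated RefSeq transcripts of GRCm38.p6, the same build, with regions of 1 kb on either side of the TSS and an overlap of at least 1 bp. Depth runs from 2961038 to 24588605 tags per library, so a missing call means not detected at that depth. For each of the 12 comparisons, counts of genes were compared by a two-sided exact permutation test over 4 libraries, and no p can fall below 0.333. The overlap code was tested on simulated peaks. Alternatives were a -log10 p of at least 5, equal numbers of top-ranked peaks, summits, windows of 500 bp and 2 kb, any curated start, each replicate left out, and a replicate block. For equal numbers, each list was cut to the shorter of the 2 lists of its assay with the same replicate number. Lists of unlike replicate number thus kept unequal lengths. Named genes were all 10 members, genes of the wider list with ATRX or H3K9me3 in both replicates of a condition (at most 8), and the first 3 by name of the 7 genes tied as closest to the members' majority call. The members and lists were chosen with earlier results of these data known.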

Additional observations from a re-analysis of the deposited data

How the results depend on the processing

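Of 96 values under the alternatives for the 12 comparisons, 91 kept the direction of the reported value or moved by less than the replicate spread, and 5 did not. The 91 include the 12 values of the replicate block, which equal the reported differences by construction and so test nothing. They also include differences that fell to 0 where the replicate spread was larger than the reported difference. No exact permutation p could fall below 0.333 under any alternative. Keeping only peaks with a -log10 p of 5 or more, the difference in members with an ATRX gene body peak became 0 and that of the wider germline list with an H3K9me3 TSS peak turned to 0.909 percentage points. The same threshold gave 0 members for H3K9me3 TSS peaks and -2 for H3K9me3 gene body peaks, -2.5 for G4 TSS peaks, and 1.82 (ATRX) and 7.27 (ATAC) points for the wider list. With equal numbers of top-ranked peaks the difference was -3 members for G4 TSS peaks, 0.5 for ATRX gene body peaks and 3.64 points for ATRX in the wider list. Leaving out replicates 1 and 2 in turn, the difference in members ran from 0 to 1 for ATRX TSS peaks, was -2 to 0 for H3K9me3, spanned -8 to -2 for G4 and was 0 to 3 for ATAC. For gene body peaks it ran from 2 to 3 for ATRX, stayed at -1 for H3K9me3, ran from -3 to -1 for G4 and was 0 to 3 for ATAC. For the wider list it ran from 5.45 to 14.5 percentage points for ATRX, was -9.09 to 7.27 for H3K9me3, spanned -52.7 to 1.82 for G4 and was 0 to 3.64 for ATAC, so the direction of the H3K9me3 and G4 values rested on 1 replicate number. As a replicate block the differences are the same, for example -5 members with a G4 TSS peak, with a sign-flip p that cannot fall below 0.5 for 2 pairs. The libraries share only a number, and the deviations of same-numbered libraries over stretches of 1 Mb correlated at 0.30 for H3K9me3, 0.05 for ATRX, 0.57 for G4 and 0.10 for ATAC. Peak lists at the depths given cannot tell a missing peak from an undetected one.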
